A study of Mus musculus with 20 samples.

Results

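The retinoid genes described here are 9 genes for the binding, uptake, metabolism and sensing of vitamin A: Crabp1, Crabp2, Stra6, Rdh10, Dhrs3, Aldh1a3, Cyp26b1, Rara and Rarg. They were taken by name from a table of normalized counts for 53380 genes, and all 9 passed the filter on low values that left 17204 genes for testing. The RNA-seq libraries came from mouse dorsal epidermis sorted into 5 populations. Thy1hi cells (4 libraries) were basal keratinocytes positive for integrin-α6, Sca1 and Thy1, and Thy1- cells (4 libraries) were integrin-α6 and Sca1 positive without Thy1. Thy1hiYFP+ cells (3 libraries) were Thy1hi cells that also carried the EYFP label, although their cell type label reads Sca1-negative. Hair follicle stem cells (HFSCs, 4 libraries) were sorted as integrin-α6 positive, Sca1-negative and CD34 positive, and dendritic epidermal T cells (DETCs, 5 libraries) as integrin-α6 negative, Sca1-low and Thy1 positive. Every sample is labelled Thy1.2CreERT2-Rosa26-EYFP, a line in which Thy1 promoter sequences drive an inducible Cre that switches on EYFP, and untreated, with ages that rise from 8 to 27 weeks from one sample to the next. These labelled ages do not overlap between populations, so labelled age and population cannot be told apart in any comparison. The methods instead give 8-week-old mice, wild-type C57BL/6J for the sorted populations and induced animals for the EYFP label. The study states the number of mice both per population and as a pool, which do not match, so how many animals a library holds is unclear and p-values measure the spread between libraries. It gives 4 mice for DETCs, fewer than their 5 libraries, and 5 mice for HFSCs, which have 4 libraries. The labels do not say which of 2 sequencing batches a library belonged to, and a batch term could not be fitted.

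Retinol reaches cells bound to a plasma carrier and can enter through the receptor Stra6. Inside the cell it is oxidised to retinal, by enzymes such as Rdh10 and with Dhrs3 working in the reverse direction, and then to retinoic acid by retinaldehyde dehydrogenases such as Aldh1a3. Crabp1 and Crabp2 bind retinoic acid in the cytoplasm, Cyp26 enzymes break it down, and the receptors Rara and Rarg, paired with retinoid X receptors, switch genes on or off in response to it. In skin, retinoids are known for their effects on keratinocyte differentiation and on the hair follicle.

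The libraries held 7781256 to 12982393 reads on genes, of which 13.1% to 41.5% lay on the ribosomal gene Rn45s. The population labels were checked on fixed markers. The summed normalized count of 5 T cell markers was 14407 to 31830 in DETCs and 63.8 to 312 elsewhere, and that of 5 hair follicle stem cell markers, among them the sorted Cd34, was 4046 to 4840 in HFSCs and 103 to 425 elsewhere. The 5 basal keratinocyte markers summed to 171225 to 228574 in Thy1hi cells, 75406 to 121650 in Thy1- cells, 148331 to 257322 in Thy1hiYFP+ cells and 48623 to 114606 in HFSCs. DETC libraries also held keratinocyte RNA: their basal markers summed to 9972 to 46131, on average 17.4% of the Thy1hi level. In such sorted bulk samples, fewer cells of a type and less RNA per cell cannot be told apart. The column of Thy1- replicate 4 listed 3212 genes out of order, which was corrected, and none of the 9 retinoid genes was among them. No exon base of the 9 genes is shared with another gene in GENCODE M21.

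Per kilobase of exon, Rarg was the most abundant of the 9 genes in every population, with group means of 121 normalized counts per kilobase in DETCs to 246 in HFSCs. Stra6 was the least abundant in every population, at 0.446 in Thy1hi cells to 3.27 in Thy1- cells, where Aldh1a3 lay close to it at 3.78. Aldh1a3 ranged from 2.19 in HFSCs to 11.8 in DETCs. Between these, Rara stood at 43.1 to 102, Dhrs3 at 26.0 to 61.8, Crabp2 at 22.3 to 100.2, Cyp26b1 at 17.4 to 57.0 and Rdh10 at 8.95 to 12.3. Crabp1 had the widest range relative to its level, from 2.53 in Thy1hiYFP+ cells to 42.0 in DETCs.

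**Figure D1:**
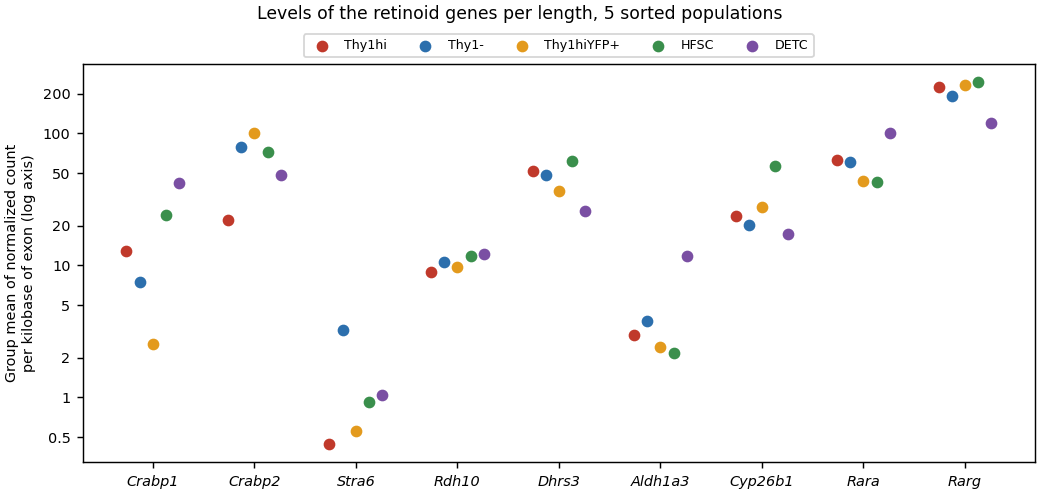
Group means of normalized count per kilobase of exon (log axis) for the 9 retinoid genes, with 1 coloured point for each of the 5 populations and no error bars. Rarg lies highest, between 121 and 246, and Stra6 lowest, between 0.446 and 3.27.

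Differences were tested with limma on log2(normalized count + 1), adjusted over the 17204 genes, and a gene was called at an adjusted p under 0.05. Fold changes are differences on that scale and understate the change of low genes. Between Thy1hi and Thy1- cells 0 of the 9 genes were called, beside 0.337% of all genes tested. There, 2 members had an unadjusted p under 0.05, beside 1242 of the 17204 genes, edgeR called 0 members and DESeq2 called 1. Libraries of these populations with the same replicate number deviated together (r of 0.293 to 0.716), although pairs of unlike numbers reached 0.514. The pairing was read from these same data, and the labels give no source for it. With the replicate number as a block, in a fit of only these 2 populations, 2 members were called, beside 6.61% of all genes. That fit without the block called neither of them. The same 2 members, Crabp2 and Stra6, were those whose libraries did not overlap between Thy1hi and Thy1- cells, beside 6.77% of all genes. Stra6 passed the filter on low values only through its Thy1- libraries.

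Against HFSCs, 2 members were called in Thy1hi cells (13.4% of all genes), 1 in Thy1- cells (6.08%) and 1 in Thy1hiYFP+ cells (11.6%), each of them lower than in HFSCs. Between Thy1hiYFP+ and Thy1hi cells limma called 0 members, beside 0.0116% of all genes. There, 3 members had an unadjusted p under 0.05, beside 1561 of the 17204 genes, with 0 member calls by edgeR and 1 by DESeq2. Between Thy1hiYFP+ and Thy1- cells limma called 0 members, beside 0.761% of all genes. Here 1 member had an unadjusted p under 0.05, beside 2307 of the 17204 genes, with 0 member calls by either edgeR or DESeq2. DETCs differed from Thy1hi cells in 4 members (36.6% of all genes), from HFSCs in 5 (39.7%), from Thy1- cells in 6 (34.1%) and from Thy1hiYFP+ cells in 4 (38.1%). With 9 genes, these counts cannot be read as more or fewer than the share of all genes. The comparisons share libraries and are not independent of each other.

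**Figure D2:**
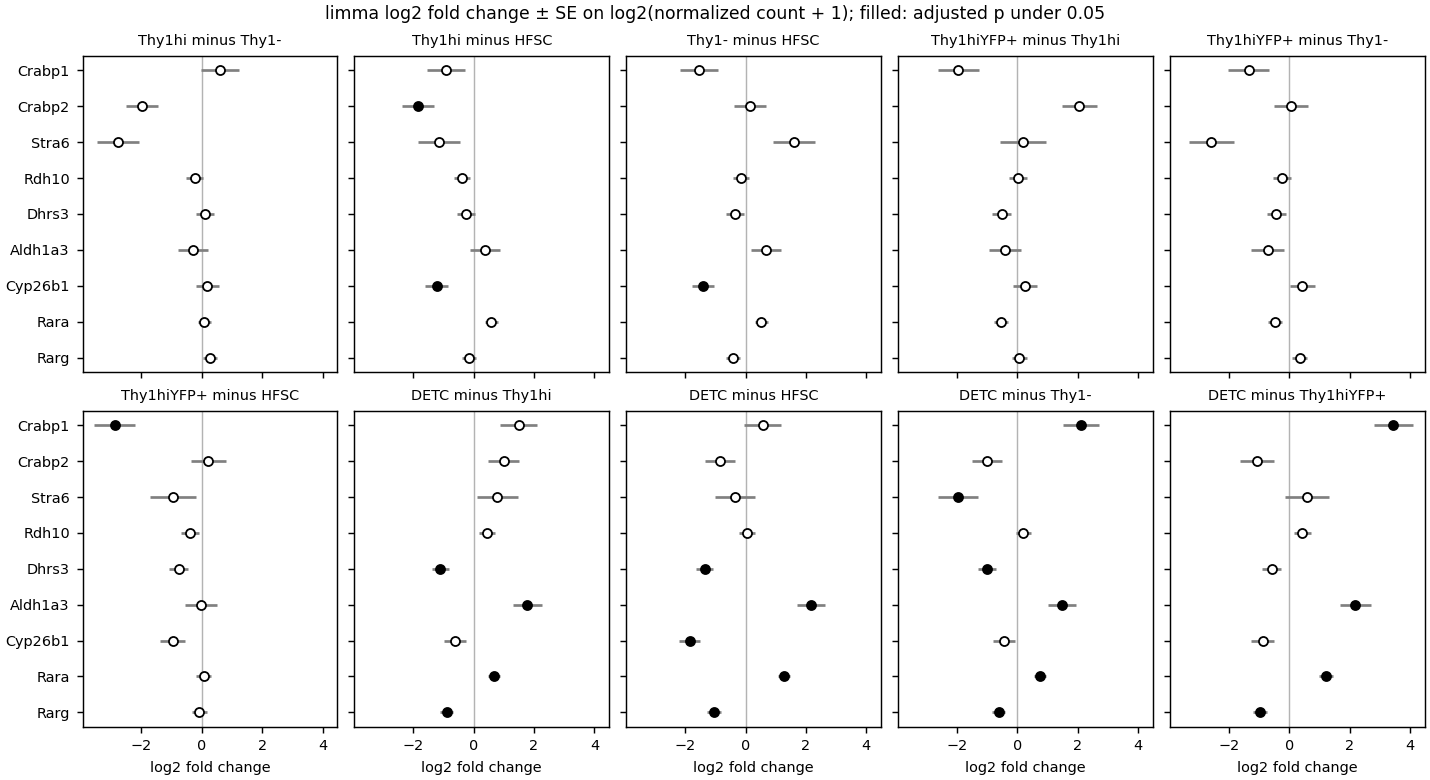
The limma log2 fold change of each of the 9 retinoid genes (points, horizontal axis) with its SE (bars) in the 10 comparisons, on log2(normalized count + 1), filled where the adjusted p was under 0.05. Filled points number 0 for Thy1hi minus Thy1- cells and 6 for DETCs minus Thy1- cells.

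Crabp2 (ENSMUSG00000004885, mm10 chr3:87948666-87953376, plus strand) encodes a cellular retinoic acid-binding protein that hands retinoic acid to its receptors. In Thy1hi cells its normalized counts were 18.8, 18.4, 20.3 and 60.2 in replicates 1 to 4. In Thy1- cells they were 86.4, 105, 110 and 120, so that every Thy1hi library lay below every Thy1- library. Crabp2 was lower in Thy1hi cells in 4 of 4 pairs of the same replicate number, with a log2 fold change of -1.99 ± 0.53 (SE) and an adjusted p of 0.159 without the block. With the block, in a fit of only the 2 populations, the difference was -1.99 ± 0.27 and was called, with an adjusted p of 0.00247. That fit without the block did not call it. Without the block, DESeq2 called it too (adjusted p = 0.0267, within a range of 0.0267 to 0.549 over the alternatives).

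HFSCs had 78.5, 97.8, 100.5 and 103 normalized counts of Crabp2, again all above the Thy1hi libraries. The fall from HFSCs to Thy1hi cells was -1.84 ± 0.53 and was called (adjusted p = 0.0243). This call was lost on leaving out any 1 of HFSC replicates 3 and 4 and Thy1hi replicates 1, 2 and 3, with adjusted p of 0.0514 to 0.0781 and log2 fold changes of -1.81 to -1.69. Thy1hiYFP+ cells ranged most widely, with 232, 118 and 47.6, and DETCs had 93.0, 47.8 and 64.0 in replicates 1 to 3 and 12.4 and 102 in the libraries a and b, whose column numbers match no sample title. In order of the group means, Thy1hiYFP+ cells (132 ± 93.2 SD, n = 3), Thy1- cells (105 ± 14.0, n = 4), HFSCs (94.9 ± 11.2, n = 4), DETCs (63.8 ± 36.1, n = 5) and Thy1hi cells (29.4 ± 20.5, n = 4) overlapped from each to the next, and no neighbours were called different. Without Thy1hi replicate 4 or DETC library a, DETCs were called higher than Thy1hi cells (log2 fold changes of 1.39 to 1.48), as they were with only the 3 numbered DETC libraries, and without Thy1hiYFP+ replicate 3 they were called lower than Thy1hiYFP+ cells (-1.66). Between Thy1hiYFP+ and Thy1hi cells the difference of 2.05 ± 0.57 was not called by limma (adjusted p = 0.256) and was called by DESeq2 (adjusted p = 0.0178), within a range of 0.0178 to 0.790 over the alternatives.

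Markers of suprabasal keratinocytes moved with Crabp2 in some populations and not in others. All 5 of these markers (Krt1, Krt10, Krtdap, Sbsn and Lor) were detected in every population, and their summed normalized count was 8330 to 26310 in Thy1hi libraries, 25780 to 39410 in Thy1-, 15160 to 57077 in Thy1hiYFP+, 22796 to 48203 in HFSC and 3576 to 25542 in DETC libraries. Thy1hi replicate 4, the highest of its group in Crabp2, also had the highest suprabasal sum of its group (26310). Within Thy1hiYFP+ cells, replicate 1 was highest in both (232 and 57077) and replicate 3 lowest in both (47.6 and 15160), and DETC library a was the lowest of all 20 libraries in both (12.4 and 3576). Within Thy1- cells, replicate 4 was highest in both (120 and 39410) and replicate 1 lowest in both (86.4 and 25780). HFSCs ran the other way, since replicate 1 had the lowest Crabp2 (78.5) with the highest sum (48203) and replicate 4 the highest Crabp2 (103) with the lowest sum (22796). Among DETCs the highest in Crabp2 was library b (102), and the highest sum was that of replicate 1 (25542). The part of these markers in the Crabp2 differences was not tested.

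**Figure D3:**
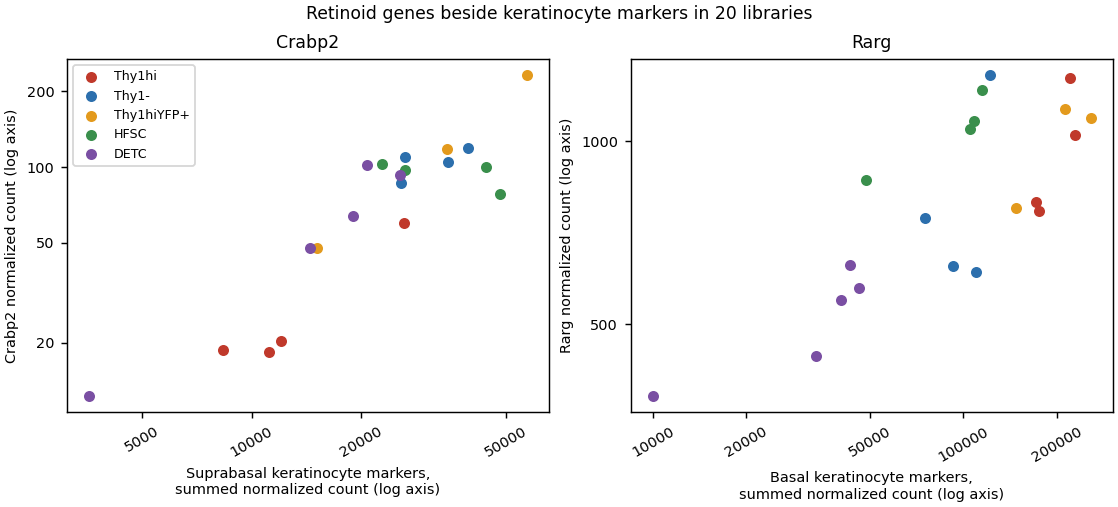
Crabp2 against the summed suprabasal markers (left) and Rarg against the summed basal markers (right), all in normalized counts on log axes, with 1 point per library coloured by population. DETC library a is lowest on both axes of both plots, at 12.4 and 3576 on the left and at 381 and 9972 on the right.

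Crabp1 (ENSMUSG00000032291, chr9:54764748-54773110, plus strand), the second retinoic acid-binding protein, was low in Thy1hi, Thy1- and Thy1hiYFP+ cells. Its normalized counts were 7.73, 14.5, 3.25 and 15.5 in Thy1hi cells and 4.86, 2.31, 7.89 and 9.02 in Thy1- cells, from 2 to 16 reads in a library. In Thy1hiYFP+ cells they were 2.99, 3.10 and 0, where 0 reads in replicate 3 allow a value of up to 2.97 by counting error alone. HFSCs had 19.6, 22.8, 27.8 and 7.71. DETCs had 36.2, 82.4 and 14.2 in replicates 1 to 3 and 15.1 and 20.4 in libraries a and b.

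Every Thy1hiYFP+ library lay below every HFSC library, and the difference was called (log2 fold change -2.88 ± 0.68, adjusted p = 0.00812). It was no longer called without Thy1hiYFP+ replicate 3, the library with 0 reads (-2.21, adjusted p = 0.0791). DETCs were higher than Thy1- cells (2.10 ± 0.60, adjusted p = 0.00951) and than Thy1hiYFP+ cells (3.45 ± 0.65, adjusted p = 0.000296), without overlap in either case, although a pseudocount of 0.1 ended the call against Thy1- cells. The 6 dermal fibroblast and dermal papilla markers, all detected, separated in the same direction in these 3 comparisons, with sums of 353 to 1287 in DETCs, 225 to 767 in HFSCs, 123 to 215 in Thy1- cells and 44.6 to 218 in Thy1hiYFP+ cells. In Thy1hi cells the sum was 186 to 1946, and its part in the Crabp1 differences was not tested. The Crabp1 difference of DETCs from Thy1hi cells was 1.49 ± 0.60 and missed the threshold (adjusted p = 0.0582). It was called on leaving out DETC replicate 3, DETC library a or Thy1hi replicate 4 (adjusted p of 0.0420 to 0.0467). It was also called by edgeR and DESeq2, with a pseudocount of 10 and with only the 3 numbered DETC libraries. The means of Crabp1 ran from DETCs (33.7 ± 28.6, n = 5) through HFSCs (19.5 ± 8.54, n = 4), Thy1hi cells (10.2 ± 5.81, n = 4) and Thy1- cells (6.02 ± 3.03, n = 4) to Thy1hiYFP+ cells (2.03 ± 1.76, n = 3), and no neighbours in this order differed by the test.

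Stra6 (ENSMUSG00000032327, chr9:58063788-58153996, plus strand) encodes the cell surface receptor that takes up retinol. It was highest in Thy1- cells, at 23.1, 12.7, 16.6 and 23.8 normalized counts in replicates 1 to 4. The same replicates of Thy1hi cells had 0, 1.32, 3.25 and 5.82, from 0 to 6 reads, where 0 reads in replicate 1 allow up to 3.31. Stra6 was lower in Thy1hi than in Thy1- cells in 4 of 4 pairs and without overlap, by a log2 fold change of -2.77 ± 0.70. This was not called without the block (adjusted p = 0.124). It was called with the block in a fit of only the 2 populations (-2.77 ± 0.51, adjusted p = 0.0107), and not in that fit without the block. Stra6 passed the filter (at least 10 normalized counts in at least 3 libraries) only through its Thy1- libraries. Tests of Thy1- cells against lower populations are therefore not independent of the filter, and no conclusion is drawn from their calls.

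HFSCs had 4.62, 6.52, 4.28 and 6.31, all below the Thy1- libraries, but the difference between Thy1- cells and HFSCs was not called (1.62 ± 0.70, adjusted p = 0.167) except with a pseudocount of 10. Thy1hiYFP+ cells had 1.0, 7.74 and 0.990, also all below the Thy1- libraries (-2.58 ± 0.76, adjusted p = 0.110). Without Thy1hiYFP+ replicate 2, the highest of the group, this difference was -3.29 and was called (adjusted p = 0.0441). DETCs had 5.87, 19.3 and 1.58 in replicates 1 to 3 and 2.74 and 1.2 in a and b. They were lower than Thy1- cells (-1.98 ± 0.66, adjusted p = 0.0253) despite the overlap of replicate 2, a call on a gene that passed the filter only through Thy1- cells. That call was lost on leaving out any 1 of DETC replicate 3, DETC libraries a and b, and Thy1- replicates 1 and 4 (adjusted p of 0.0544 to 0.0643), and neither edgeR nor DESeq2, nor limma with a pseudocount of 0.1, without a filter or with only the 3 numbered DETC libraries, made it. Below Thy1- cells (19.0 ± 5.32, n = 4), the means of DETCs (6.14 ± 7.59, n = 5), HFSCs (5.43 ± 1.15, n = 4), Thy1hiYFP+ cells (3.24 ± 3.89, n = 3) and Thy1hi cells (2.60 ± 2.53, n = 4) were not separated by the test.

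The 4 markers of the upper hair follicle (Lrig1, Plet1, Krt79 and Krt17) were all detected and summed to 11979 to 12244 in Thy1- cells against 6841 to 8184 in Thy1hi cells. They reached 5525 to 11826 in Thy1hiYFP+ cells, 4597 to 17348 in HFSCs and 4026 to 9219 in DETCs, so that HFSCs held the highest single sum. Within HFSCs, Thy1hiYFP+ cells and DETCs, replicate 2 was the highest of its group both in this sum (17348, 11826 and 9218.5) and in Stra6 (6.52, 7.74 and 19.3), while within Thy1hi and Thy1- cells the highest library in Stra6, replicate 4 in both, was not the highest in the sum. Their part in the Stra6 difference was not tested.

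**Figure D4:**
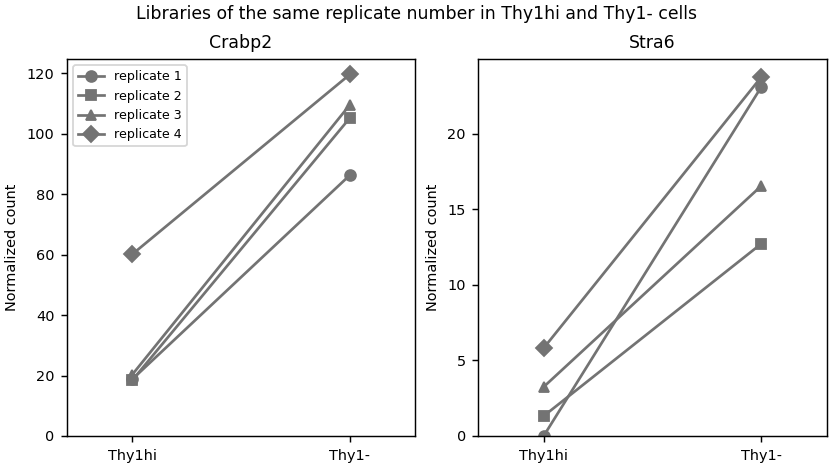
Normalized counts of Crabp2 and Stra6 in Thy1hi and Thy1- libraries, from 0, with a line joining libraries of the same replicate number. All 8 lines rise from Thy1hi to Thy1- cells, and Thy1hi replicate 4 stands apart in Crabp2 at 60.2.

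Rdh10 (ENSMUSG00000025921, chr1:16105774-16133734, plus strand), which oxidises retinol to retinal, was called in none of the 10 comparisons by limma with all libraries. Without Thy1hiYFP+ replicate 2 it was called higher in DETCs than in Thy1hiYFP+ cells (0.77, adjusted p = 0.0473). Its normalized counts were 33.1, 42.2, 40.6 and 33.0 in Thy1hi cells, 49.9, 53.2, 35.5 and 39.4 in Thy1- cells, 40.9, 60.4 and 20.8 in Thy1hiYFP+ cells and 48.5, 57.6, 41.7 and 48.4 in HFSCs. DETCs had 48.9, 47.8 and 44.3 in replicates 1 to 3 and 50.8 and 63.7 in a and b. All DETC libraries were above all Thy1hi libraries, but by only 0.44 ± 0.26 (adjusted p = 0.206). The groups otherwise overlapped, with means from 37.2 ± 4.86 in Thy1hi cells (n = 4) to 51.1 ± 7.41 in DETCs (n = 5).

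Dhrs3 (ENSMUSG00000066026, chr4:144892827-144928209, plus strand), which reduces retinal back to retinol, was lower in DETCs than in 3 of the 4 keratinocyte populations. DETCs had 102, 61.0 and 78.3 normalized counts in replicates 1 to 3 and 30.2 and 109 in a and b. Thy1hi cells had 163, 116, 169 and 161, Thy1- cells 120, 141, 134 and 171, and HFSCs 142, 199, 177 and 205, and none of these 12 libraries was as low as any DETC library. The log2 fold changes of DETCs were -1.11 ± 0.29 against Thy1hi cells (adjusted p = 0.00428), -1.35 ± 0.29 against HFSCs (adjusted p = 0.000813) and -1.0 ± 0.29 against Thy1- cells (adjusted p = 0.00955). Thy1hiYFP+ cells, at 83.7, 95.2 and 144, overlapped DETCs (adjusted p = 0.152). Among the keratinocyte populations, with means from 108 ± 31.8 in Thy1hiYFP+ cells (n = 3) to 181 ± 28.5 in HFSCs (n = 4), Dhrs3 was not called in any comparison.

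Aldh1a3 (ENSMUSG00000015134, chr7:66390890-66427517, minus strand), a retinaldehyde dehydrogenase that makes retinoic acid, was the reverse. DETCs had 19.6, 42.7 and 39.5 normalized counts in replicates 1 to 3 and 104 and 66.1 in a and b. Thy1hi cells had 11.0, 21.1, 9.75 and 12.6, Thy1- cells 24.3, 23.1, 13.4 and 9.02, Thy1hiYFP+ cells 3.99, 18.6 and 10.9, and HFSCs 10.4, 14.1, 9.62 and 6.31. DETC replicate 1 lay within the range of Thy1hi and Thy1- cells, and the other 4 DETC libraries lay above every keratinocyte library. DETCs were higher than HFSCs (2.16 ± 0.47, adjusted p = 0.00106), Thy1hiYFP+ cells (2.19 ± 0.51, adjusted p = 0.00201), Thy1hi cells (1.78 ± 0.47, adjusted p = 0.00515) and Thy1- cells (1.48 ± 0.47, adjusted p = 0.0191). The last call was lost without DETC library a, Thy1- replicate 3 or Thy1- replicate 4 (adjusted p of 0.0529 to 0.0727). With only the 3 numbered DETC libraries, the differences from Thy1hi cells (1.24, adjusted p = 0.0697) and from Thy1- cells (0.94, adjusted p = 0.182) were not called. The keratinocyte means, from 10.1 ± 3.21 in HFSCs (n = 4) to 17.5 ± 7.46 in Thy1- cells (n = 4), did not differ by the test.

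Cyp26b1 (ENSMUSG00000063415, chr6:84571414-84593908, minus strand), a cytochrome P450 that clears retinoic acid, was highest in HFSCs. HFSCs had 307, 338, 402 and 174 normalized counts in replicates 1 to 4. Thy1hi cells had 151, 97.5, 112 and 145, and Thy1- cells 113, 111, 109 and 104. All HFSC libraries were above all libraries of both populations, and the log2 fold changes were -1.23 ± 0.37 for Thy1hi cells (adjusted p = 0.0339) and -1.41 ± 0.37 for Thy1- cells (adjusted p = 0.0281). Both calls were lost on leaving out any 1 of HFSC replicates 1, 2 and 3, or replicate 1, 2 or 3 of the other population, with adjusted p of 0.0513 to 0.0988 for Thy1hi cells and 0.0583 to 0.0814 for Thy1- cells. Without HFSC replicate 4 both calls stood, and with totals equalised without Rn45s both were lost, as was the Thy1hi call without a filter.

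Thy1hiYFP+ cells, at 162, 139 and 146, were also below every HFSC library, with a difference of -0.97 ± 0.40 that was not called by limma (adjusted p = 0.134) and was called by DESeq2. DETCs had 74.4, 141 and 115 in replicates 1 to 3 and 24.7 and 109 in a and b, and were lower than HFSCs by -1.85 ± 0.36 (adjusted p = 0.000318), which was called under each alternative run. HFSC replicate 4, the lowest HFSC library in Cyp26b1, also had the lowest sum of basal keratinocyte markers of its group, 48623 against 104683 to 114606, and a sum of hair follicle stem cell markers (4537) within the range of the others. It also stood apart in Rn45s (13.1% of reads, against 38.3% to 41.5%), in the 4 Langerhans cell markers (37.1, against 1602 to 3360) and in the 5 T cell markers (63.8, against 224 to 291). The part of these in the Cyp26b1 values was not tested. Below HFSCs (305 ± 95.8, n = 4), the means of Thy1hiYFP+ cells (149 ± 12.3, n = 3), Thy1hi cells (126 ± 25.7, n = 4), Thy1- cells (109 ± 3.86, n = 4) and DETCs (93.0 ± 45.1, n = 5) did not differ by the test, except that DETCs were called lower than Thy1hiYFP+ cells without DETC replicate 2 (-1.08, adjusted p = 0.0336) and with quantile normalization.

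The receptor Rara (ENSMUSG00000037992, chr11:98927818-98974942, plus strand) was highest in DETCs. They had 443, 365 and 423 normalized counts in replicates 1 to 3 and 557 and 430 in a and b. Thy1hi cells had 329, 265, 252 and 254, Thy1- cells 366, 252, 196 and 250, Thy1hiYFP+ cells 179, 172 and 218, and HFSCs 166, 249, 215 and 122. DETC libraries lay above every other library except Thy1- replicate 1, which at 366 was level with DETC replicate 2. The rise in DETCs was 0.68 ± 0.20 over Thy1hi cells (adjusted p = 0.0117), 1.27 ± 0.20 over HFSCs (adjusted p = 4.90e-05), 0.76 ± 0.20 over Thy1- cells (adjusted p = 0.00657) and 1.22 ± 0.22 over Thy1hiYFP+ cells (adjusted p = 0.000215). With only the 3 numbered DETC libraries, the rise over Thy1hi cells was 0.58 and not called (adjusted p = 0.0644), and quantile normalization also ended that call. Thy1hi libraries were all above HFSC libraries (0.59 ± 0.22), a difference that missed the threshold with all libraries (adjusted p = 0.0772) and passed it without HFSC replicate 2 (adjusted p = 0.0325), with quantile normalization and with totals equalised without Rn45s (adjusted p of 0.0295 to 0.222 over the alternatives). The last scaling also called Rara higher in Thy1- cells than in HFSCs. The keratinocyte means from 188 ± 55.5 in HFSCs (n = 4) to 275 ± 36.4 in Thy1hi cells (n = 4) were otherwise not called different by limma when single libraries were left out.

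The receptor Rarg (ENSMUSG00000001288, chr15:102234938-102257517, minus strand), the predominant retinoic acid receptor of epidermis, was lowest in DETCs. They had 573, 443 and 625 normalized counts in replicates 1 to 3 and 381 and 548 in a and b. Thy1hi cells had 1026, 767, 795 and 1271, Thy1- cells 609, 746, 622 and 1285, Thy1hiYFP+ cells 1128, 777 and 1091, and HFSCs 1078, 1046, 1212 and 863. Only Thy1- replicates 1 and 3 came down to the level of DETC replicate 3. The fall in DETCs was -0.90 ± 0.22 against Thy1hi cells (adjusted p = 0.00276), -1.04 ± 0.22 against HFSCs (adjusted p = 0.000799), -0.96 ± 0.24 against Thy1hiYFP+ cells (adjusted p = 0.00331) and -0.62 ± 0.22 against Thy1- cells (adjusted p = 0.0349). The last call was lost without DETC replicate 2, DETC library a, or Thy1- replicate 2 or 4 (adjusted p of 0.0578 to 0.169), and also without a filter, with only these 2 populations in the fit or with only the 3 numbered DETC libraries. The 4 keratinocyte means, from 816 ± 319 in Thy1- cells (n = 4) to 1050 ± 144 in HFSCs (n = 4), overlapped and were not called different, except that without Thy1- replicate 4 Thy1- cells were called lower than HFSCs (-0.67, adjusted p = 0.0475).

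Keratinocyte RNA differed among the DETC libraries. DETC library a had the smallest sum of basal keratinocyte markers (9972, against 33571 to 46131 in the other 4) and the largest sum of T cell markers (31830, against 14407 to 22390). It was also the highest DETC library in Aldh1a3 (104) and Rara (557) and the lowest in Dhrs3 (30.2), Cyp26b1 (24.7), Rarg (381) and Crabp2 (12.4). Among the other 4, replicate 2, with the smallest basal sum (33571), was likewise lowest in Dhrs3 (61.0), Rarg (443) and Crabp2 (47.8), and replicate 1, with the largest (46131), was lowest in Aldh1a3 (19.6). For Rara and Cyp26b1 the order was different, since replicate 2 had the lowest Rara (365) and the highest Cyp26b1 (141), and replicate 1 the lowest Cyp26b1 of the 4 (74.4). Rara and Dhrs3 kept each of their DETC calls on leaving out any single library, library a included. The part of keratinocyte RNA in the DETC values was not tested.

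**Figure D5:**
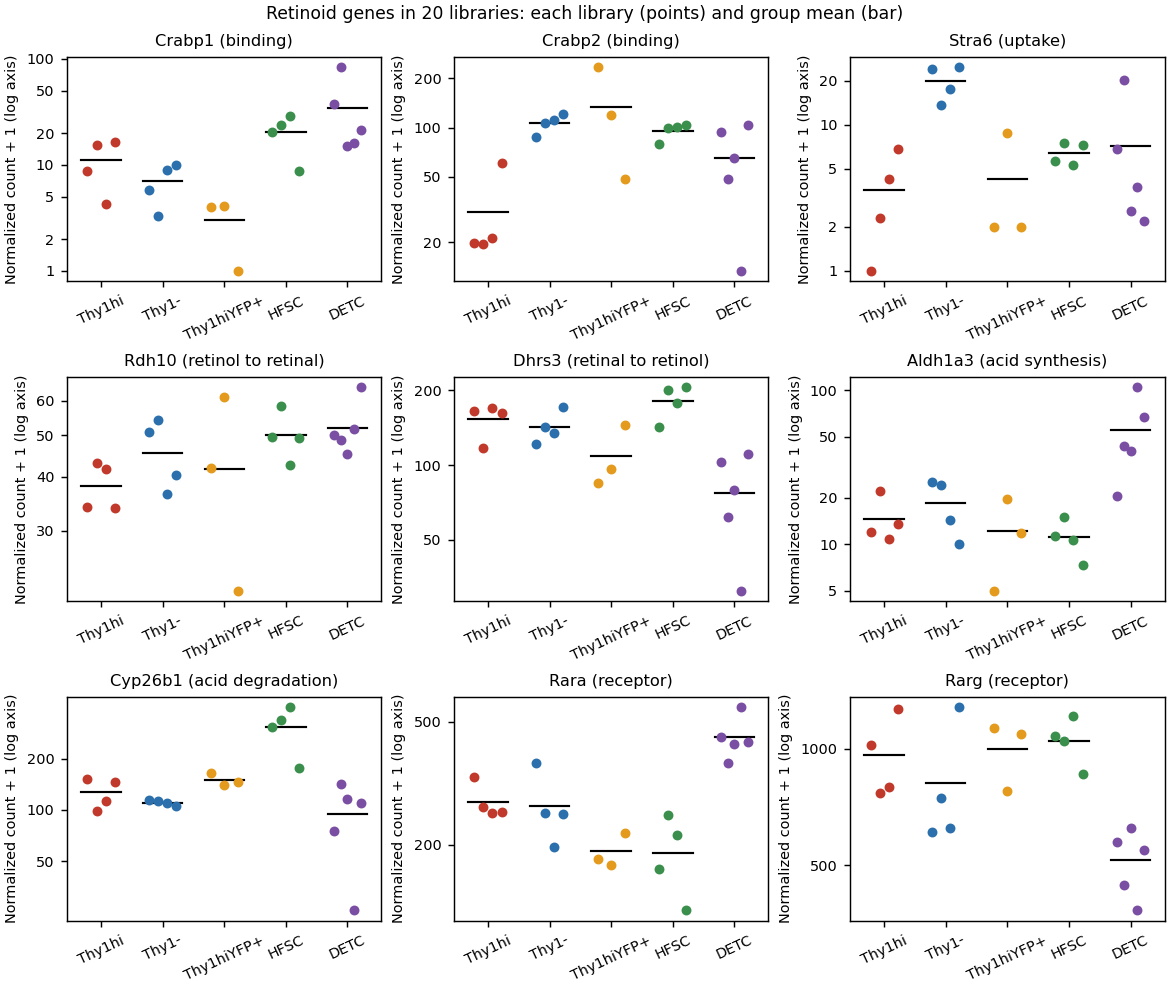
Normalized count + 1 (log axis, a separate scale for each gene) of the 9 retinoid genes, with 1 point per library and a bar at the group mean for the 5 populations. DETCs lie at the top for Aldh1a3 and Rara and at the bottom for Rarg and Dhrs3, Thy1- cells at the top for Stra6, Thy1hi cells at the bottom for Crabp2, and HFSCs at the top for Cyp26b1.

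Rara and Rarg are themselves genes with several start sites, and their promoters were read for the sequence that retinoic acid receptors bind. The receptors recognise pairs of a hexamer, searched here on both strands as AGGTCA and its close forms AGTTCA along with GGGTCA as well as GGTTCA, set as direct repeats with a spacing of 1, 2 or 5 bases. RefSeq promoter sequences (GRCm38.p6, the assembly of mm10) were given for 6 of the 9 genes, at 15 start sites, and 0 of the 6 held such a repeat from 250 bases before the start to 50 after it. The repeat spaced by 5 lay in 0.0974% of all 32851 promoters of this length, and among the other retinoid pathway genes in Rarb and Cyp26a1. The repeat spaced by 1 lay in 0.222% of all promoters and in 1 other pathway gene, Bco1, an enzyme that splits beta-carotene into retinal. The repeat spaced by 2 lay in 0.268% and in 0 of the pathway genes. The stretches of Rarb and Cyp26a1 are shown because both genes are textbook targets of retinoic acid, with the hexamers in capitals, 5′ to 3′. That of Rarb lies at chr14:16575507-16575535 on the minus strand, and its repeat ends 36 bases before the start site. That of Cyp26a1 lies at chr19:37697770-37697798 and is written on the minus strand, its repeat ending 15 bases before the start site.
Rarb: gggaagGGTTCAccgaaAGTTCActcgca
Cyp26a1: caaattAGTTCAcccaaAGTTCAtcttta
Neither transcript was abundant enough to be tested. Cyp26a1 had 0 to 4 reads in a library and 11 in all 20, and Rarb 0 to 10 reads and 70 in all.

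Single hexamers are common, and 38.6% of all promoters held at least 1 in the 250 bases before the start. Among the 15 start sites of the members, 1 of Rara held 4 and 1 of Rarg held 1, and the others held 0. Both windows are shown because they belong to the receptor genes that moved in opposite directions in DETCs, with the hexamers of either strand in capitals. The Rara window is chr11:98939461-98939710 on the plus strand and has 58.8% GC. The Rarg window is chr15:102257523-102257772 on the minus strand and has 74.4% GC. The median GC of all promoters was 52.4%.
Rara: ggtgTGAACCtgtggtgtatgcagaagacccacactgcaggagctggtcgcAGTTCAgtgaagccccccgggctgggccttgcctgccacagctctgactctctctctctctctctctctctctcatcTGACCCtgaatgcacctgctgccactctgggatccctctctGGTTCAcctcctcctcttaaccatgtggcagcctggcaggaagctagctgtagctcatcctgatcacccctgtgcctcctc
Rarg: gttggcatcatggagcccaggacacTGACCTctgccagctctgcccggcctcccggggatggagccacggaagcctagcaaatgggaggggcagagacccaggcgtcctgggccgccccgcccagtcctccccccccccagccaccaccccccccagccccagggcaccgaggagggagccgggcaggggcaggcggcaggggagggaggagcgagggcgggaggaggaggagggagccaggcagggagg
A match is a description of the letters and does not show binding.

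The rest of the pathway was followed on a list of 52 genes for retinoid transport, conversion, synthesis, degradation, receptors, their coregulators and known targets, of which 39 could be tested. Between Thy1hi and Thy1- cells limma called 1 of the 39 without the block, beside 0.337% of all genes. There, 8 of the 39 had an unadjusted p under 0.05, beside 1242 of all 17204 genes, with 0 calls by edgeR and 1 by DESeq2.

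With the block, 7 of the 39 were called between Thy1hi and Thy1- cells, 5 lower and 2 higher, beside 6.61% of all genes. Among the lower ones were the retinol dehydrogenases Sdr16c5 (-1.39 ± 0.22), Sdr16c6 (-1.37 ± 0.25) and Adh7 (-1.20 ± 0.18), and Fabp5 (-0.92 ± 0.15), a fatty acid-binding protein that also binds retinoic acid. The median log2 fold change of the 39 was -0.23, beside -0.02 over all genes tested. The summed suprabasal markers were also lower in Thy1hi cells (8330 to 26310) than in Thy1- cells (25780 to 39410), with overlap. Upper follicle markers were lower too (6841 to 8184 against 11979 to 12244) and basal markers higher (171225 to 228574 against 75406 to 121650), both without overlap. The part of these markers in the pathway differences was not tested.

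Between Thy1hi cells and HFSCs 5 of the 39 were called, 4 lower and 1 higher, beside 13.4% of all genes. Sdr16c6 (-1.90 ± 0.60), the cellular retinol-binding protein Rbp2 (-1.53 ± 0.50) and the retinol dehydrogenase Rdh12 (-0.75 ± 0.20) were among the lower genes, and Nrip1, a corepressor of nuclear receptors, was higher (0.67 ± 0.16, adjusted p = 0.00644). The adjusted p was 0.0172 for Rdh12, 0.0406 for Sdr16c6 and 0.0488 for Rbp2, and each of these lost its call on leaving out some single library, namely HFSC replicates 1 and 4 for Rdh12, HFSC replicates 1 and 3 and Thy1hi replicates 1, 2 and 3 for Sdr16c6, and HFSC replicates 1, 3 and 4 and Thy1hi replicates 1, 2 and 3 for Rbp2 (adjusted p of 0.0534 to 0.176). Without a filter none of these 3 calls was made. The median of the 39 was -0.37 beside 0.02 over all genes. Summed suprabasal markers were 22796 to 48203 in HFSCs and 8330 to 26310 in Thy1hi cells. The 4 sebaceous gland markers summed to 548 to 4794 and 686 to 1402. HFSC replicate 1 was the highest HFSC library in both sums, in Sdr16c6 (195) and in Rbp2 (48.5). Rdh12 was highest in HFSC replicate 4 (195), the lowest of its group in both sums. The part of these markers was not tested.

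Thy1hiYFP+ cells showed 3 of the 39 higher than in HFSCs, beside 11.6% of all genes called in either direction. Among them were Fabp5 (1.52 ± 0.48, adjusted p = 0.0425) and Rdh13, a mitochondrial member of the retinol dehydrogenase family (0.55 ± 0.18, adjusted p = 0.0481). EdgeR called 0 of the 39 in that comparison, and both of these calls were lost on leaving out any of 6 of the 7 libraries, all but HFSC replicate 1 for Fabp5 and Thy1hiYFP+ replicate 3 for Rdh13 (adjusted p of 0.0514 to 0.230). Limma called 0 of the 39 in Thy1- cells against HFSCs, in Thy1hiYFP+ against Thy1hi cells and in Thy1hiYFP+ against Thy1- cells, beside 6.08%, 0.0116% and 0.761% of all genes. At an unadjusted limma p under 0.05 were 5, 6 and 7 of the 39, beside 4085, 1561 and 2307 of all 17204 genes. EdgeR made 0 calls in each and DESeq2 made 4, 3 and 3.

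In DETCs, 10 of the 39 were called against Thy1hi cells (36.6% of all genes tested), 11 against HFSCs (39.7%), 11 against Thy1- cells (34.1%) and 10 against Thy1hiYFP+ cells (38.1%). In each comparison 4 of the called genes were higher in DETCs. Dgat1, which can esterify retinol as well as make triglycerides, had 1037 to 2741 normalized counts in DETCs and 36.4 to 128 in keratinocytes. Of the others, 1 was singled out after its values were seen, since like Dgat1 it was called in all 4 comparisons under each alternative run. This was Ncoa2, a coactivator of nuclear receptors, with 1961 to 5164 in DETCs and 624 to 880 in keratinocytes.

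The other 13 genes of the list could not be tested. Among them were Aldh1a2, a retinaldehyde dehydrogenase, with 0 to 10 reads in a library, Rbp4, the plasma carrier of retinol, with 0 to 3, and Cyp26c1 with 0 to 5. With Cyp26a1 and Cyp26c1 this low, Cyp26b1 was the only Cyp26 gene tested.

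The genes most like each member were taken as the 2 with the highest Pearson r of log2 values over the 20 libraries, which fall into populations, so that r reflects differences between populations as well as between libraries and carries no p. For Crabp2 they were Krtdap (r = 0.932), which is 1 of the 5 suprabasal markers, and the keratin Krt77 (r = 0.915). For Stra6 they were Gata6 (r = 0.830), a transcription factor, and Slco2b1 (r = 0.817), an anion transporter. For Crabp1 they were Bambi (r = 0.861) and Gm28875 (r = 0.845), for Cyp26b1 the homeobox gene Hoxb8 (r = 0.924) and Actn1 (r = 0.900), and for Dhrs3 the chemokine receptor gene Ackr4 (r = 0.939) and Mtmr11 (r = 0.933). For Aldh1a3 they were Pias1 (r = 0.937) and Sik3 (r = 0.930), for Rara Rhog (r = 0.947) and Sh3bp4 (r = 0.937), for Rarg Nfic (r = 0.952) and Slc29a3 (r = 0.951), and for Rdh10 Gm38114 (r = 0.812) and Fads6 (r = 0.812).

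Among the members themselves, r over the 20 libraries was highest between Aldh1a3 and Rara (0.799) and between Dhrs3 and Rarg (0.737), and lowest between Aldh1a3 and Rarg (-0.828). The 2 binding proteins Crabp1 and Crabp2 had an r of -0.06.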

How the data were processed

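Per the labels and the methods, RNA of sorted cells was sequenced as single reads, aligned to mm10 with STAR and counted per gene with featureCounts. The deposited values are read counts that the authors divided by DESeq2 size factors, a signal without length scaling, from which whole reads could be recovered. The column of Thy1- replicate 4 listed 3212 genes out of order. After correction its correlation with the mean of the remaining libraries of that population, over those of these genes that were tested, went from 0.0563 to 0.935. No column was left out (0 columns of no sample).

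Genes with at least 10 normalized counts in at least 3 libraries were tested with limma 3.58.1 (R 4.3.3; two-sided, mean-variance trend, all 20 libraries in 1 fit, Benjamini-Hochberg adjustment, threshold 0.05) on log2(normalized count + 1). The test was tried on simulated data first. Alternatives were other pseudocounts (0.1, 10), filters and scalings, the replicate block, single libraries left out, and edgeR 4.0.16 and DESeq2 1.42.0 on the whole reads. The replicate block was fitted on only the 2 populations compared, so it changed 2 settings at once. A fit on the 3 numbered DETC libraries was added after the data were seen. Depth was 7781256 to 12982393 reads on genes. Floors (3 reads) cover counting error only, since reads carry no molecular identifiers. Values after ± are the SE of the fit or the SD over libraries, and reflect the spread between libraries.

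Replicate numbers of Thy1hi and Thy1- libraries were taken as pairs because each of 4 same-number pairs correlated in its deviations from the group means (r of 0.293 to 0.716; 12 other pairs, -0.651 to 0.514). Same-number pairs were also all positive for DETCs with HFSCs (3 pairs, 0.170 to 0.333, with other pairs up to 0.371). For DETCs with Thy1hiYFP+ cells they were positive but small (3 pairs, 0.0129 to 0.140, with other pairs up to 0.0837). In each remaining comparison some same-number pair was negative. The labels give no source of the pairing. All 9 members were named; other pathway genes were named if called between keratinocyte populations or among the 2 largest changes of a comparison. The members and lists were chosen with earlier results of these data known. Some genes of the pathway list enter its counts and are not reported here by name.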

Additional observations from a re-analysis of the deposited data

Results flagged for a closer look

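In 4 of the 36 sets made of 1 retinoid gene in 1 population of 4 or 5 libraries, a single library lay far from the others by Dixon's criterion, which chance alone meets in about 1 of 20 sets. Crabp2 in Thy1hi replicate 4 stood at 60.15 normalized counts, while the other Thy1hi libraries had 18.44 to 20.32. Stra6 in DETC replicate 2 stood at 19.32, above 1.2 to 5.87 in the others. Dhrs3 in Thy1hi replicate 2 stood at 115.91, below 161.04 to 169.08. Rara in Thy1hi replicate 1 stood at 328.99, above 251.99 to 264.75.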

How the results depend on the processing

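Over 940 alternatives to 49 fold changes, 791 kept the direction and side of the threshold, 128 lost the call, 21 gained it and 0 changed sign. The cause was not tested in any case. Counts of called retinoid genes (of 9) were as follows. Between Thy1hi and Thy1- cells 0 became 2 with the replicate block and 1 with DESeq2. Here and below, each fit with the block held only the 2 populations compared. For Thy1hi and Thy1- cells that fit without the block called neither of the 2. Between Thy1hi cells and HFSCs 2 became 1 without a filter, 1 with the block and 0 to 2 with single libraries left out. Quantile normalization kept both of these calls and added Rara. Between Thy1- cells and HFSCs 1 became 2 with a pseudocount of 10 and 0 to 2 with libraries left out. Between Thy1hiYFP+ and Thy1hi cells 0 became 1 with DESeq2, and between Thy1hiYFP+ and Thy1- cells 0 to 1 with libraries left out. Between Thy1hiYFP+ cells and HFSCs 1 became 0 with a mean of at least 50, 2 with DESeq2 and 0 to 1 with libraries left out. Between DETCs and Thy1- cells 6 became 3 with a mean of at least 50, 3 with the block, 3 with only the 3 numbered DETC libraries and 3 to 6 with libraries left out. Between DETCs and Thy1hiYFP+ cells 4 became 2 with a mean of at least 50. Between DETCs and Thy1hi cells Crabp1 was added with a pseudocount of 10, edgeR or DESeq2, and Rara was lost with quantile normalization.

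Counts of called pathway genes (of 39) moved likewise. Between Thy1hi and Thy1- cells 1 became 7 with the replicate block, 0 with a mean of at least 50, 0 with only the 2 populations in the fit, 0 with edgeR and 0 to 1 with libraries left out. Between Thy1hi cells and HFSCs 5 became 1 without a filter, 3 with a mean of at least 50, 3 with totals equalised without Rn45s, 2 with the shifted rows as deposited, 1 with the block, 10 with DESeq2 and 1 to 6 with libraries left out. Between Thy1- cells and HFSCs 0 became 1 with a mean of at least 50, 1 with quantile normalization, 2 with totals equalised without Rn45s, 4 with DESeq2 and 0 to 3 with libraries left out. Between Thy1hiYFP+ and Thy1hi cells 0 became 2 with a pseudocount of 10, 1 with quantile normalization, 1 with only the 2 populations in the fit and 3 with DESeq2, and between Thy1hiYFP+ and Thy1- cells 3 with DESeq2. Between Thy1hiYFP+ cells and HFSCs 3 became 0 without a filter, 1 with only the 2 populations in the fit, 1 with the block, 0 with edgeR and 0 to 2 with libraries left out. Between DETCs and Thy1hi cells 10 became 6 with a mean of at least 50.

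Where all same-number pairs correlated positively, the block changed no other member call. These were Thy1hi with Thy1- cells, DETCs with HFSCs (5 called in both fits) and DETCs with Thy1hiYFP+ cells (4 called in both fits). Crabp1 and Stra6 had 0 to 29 reads and Aldh1a3 4 to 24 reads in the keratinocyte libraries, which limits what their fold changes can resolve. The limits of the whole comparison are the number of libraries, the unassigned batches, the labelled ages and 2 DETC libraries that match no title. Thy1hi replicate 3 was matched to its title although its column name carries an extra number.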
